A study of Mus musculus with 8 samples.

Results

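The proteasome genes were followed in MBL2 cells, a T-cell lymphoma line of C57BL/6 mice that was induced by Moloney murine leukaemia virus. The genes were chosen by name: a symbol starting with Psma, Psmb, Psmc, Psmd, Psme, Psmf or Psmg and a digit, without the immunoproteasome catalytic subunits Psmb8, Psmb9 and Psmb10. This gave 45 of the 12260 genes listed, and all 45 were among the 11934 genes tested. The rule used no measured value. Psmc3ip entered through its symbol, which records that its product binds the ATPase Psmc3. It is a meiotic recombination factor and not a proteasome subunit.

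Messenger RNA was sequenced from cells that had received talazoparib and romidepsin together (combination), talazoparib alone, romidepsin alone (spelled romidespin in the labels) or no drug (control), with 2 libraries per group and 8 in all. Each drug was given as a single dose for 24 h in medium the labels call RPMI-C, but the sources used here state no dose. Talazoparib inhibits PARP enzymes, which act in DNA repair, and romidepsin inhibits histone deacetylases. All groups share this 1 line. Nothing in the labels tells whether libraries of the same group stem from different cultures. The p-values therefore measure only how far these libraries spread, and that spread may be technical.

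The 26S proteasome degrades proteins that carry ubiquitin chains. Its 20S core is a barrel of alpha rings, which gate the entrance, and beta rings, in which 3 subunits cut the substrate: Psmb6 (caspase-like), Psmb7 (trypsin-like) and Psmb5 (chymotrypsin-like). The 19S cap recognises, unfolds and feeds the substrate, with a base that holds the Psmc ATPases and a lid that holds most Psmd subunits, among them the deubiquitinase Psmd14. Dedicated chaperones build both parts, and alternative activators of the Psme family can dock on the core. In lymphoid cells, Psmb8, Psmb9 and Psmb10 can replace the 3 standard catalytic subunits. The transcription factor Nfe2l1 (Nrf1) is known to raise proteasome genes when the proteasome is inhibited, through antioxidant-type elements in their promoters.

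Promoter windows of 250 bases before to 50 bases after the start are shown for the 5 genes on which the results below turn, Psmb5, Psmc6, Psma6 and Psmg1 (lower after talazoparib) and Psmc3ip (higher). They are RefSeq sequences of build GRCm38.p6, read 5′ to 3′ on the gene's strand. Where a gene had several windows, the one nearest the start of its principal transcript in GENCODE was taken. The Psma6 window lies within the gene's span (55384222 to 55418459), so it is not at the outermost start. Psmb5 is at chr14:54617946-54618245 (minus strand), Psmc6 at chr14:45329574-45329873 (plus), Psma6 at chr12:55398575-55398874 (plus), Psmg1 at chr16:95990911-95991210 (minus) and Psmc3ip at chr11:101095386-101095685 (minus). Capitals mark matches on either strand to TGACNNNGC (the antioxidant-type element), CCAAT (the CCAAT box) and CCGGAAG (a form of the ETS factor site).
Psmb5: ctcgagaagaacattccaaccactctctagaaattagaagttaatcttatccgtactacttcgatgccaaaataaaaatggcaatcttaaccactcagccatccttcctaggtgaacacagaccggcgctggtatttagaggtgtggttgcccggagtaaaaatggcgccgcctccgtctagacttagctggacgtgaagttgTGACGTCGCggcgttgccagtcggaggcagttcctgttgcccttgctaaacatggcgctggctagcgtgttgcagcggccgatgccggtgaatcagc
Psmc6: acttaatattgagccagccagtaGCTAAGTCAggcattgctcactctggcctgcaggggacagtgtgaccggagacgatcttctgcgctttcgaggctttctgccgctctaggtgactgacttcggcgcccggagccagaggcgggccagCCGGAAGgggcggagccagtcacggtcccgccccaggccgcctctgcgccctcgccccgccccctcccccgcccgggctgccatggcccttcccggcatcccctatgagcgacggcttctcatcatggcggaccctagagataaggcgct
Psma6: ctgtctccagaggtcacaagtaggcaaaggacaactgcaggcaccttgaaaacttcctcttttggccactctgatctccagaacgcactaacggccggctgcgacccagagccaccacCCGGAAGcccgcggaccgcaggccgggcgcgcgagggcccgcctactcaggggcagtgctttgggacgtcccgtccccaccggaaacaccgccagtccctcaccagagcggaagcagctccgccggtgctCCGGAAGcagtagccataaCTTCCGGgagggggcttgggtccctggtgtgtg
Psmg1: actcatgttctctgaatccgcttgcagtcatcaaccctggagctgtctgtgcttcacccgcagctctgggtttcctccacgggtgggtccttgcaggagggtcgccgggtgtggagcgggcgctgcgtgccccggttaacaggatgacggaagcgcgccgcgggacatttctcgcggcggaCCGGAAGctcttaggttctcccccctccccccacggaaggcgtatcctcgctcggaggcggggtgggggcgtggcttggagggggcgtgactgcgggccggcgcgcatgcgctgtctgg
Psmc3ip: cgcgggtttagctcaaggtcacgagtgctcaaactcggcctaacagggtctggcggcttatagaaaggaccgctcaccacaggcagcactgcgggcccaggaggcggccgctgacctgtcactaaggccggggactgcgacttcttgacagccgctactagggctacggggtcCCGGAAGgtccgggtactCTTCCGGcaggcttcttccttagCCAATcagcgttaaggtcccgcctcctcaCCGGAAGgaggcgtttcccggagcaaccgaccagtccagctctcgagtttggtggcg

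Of the 45 genes, 38 were matched to a RefSeq window. TGACNNNGC stood in 6 of the 38 windows (15.8%), against 14.2% of the 12194 windows of genes in the deposited table. The match in Psmb5 began 47 bases before the start, and that in Psmc6 ran on the opposite strand. CCAAT stood in 12 of 38 windows (31.6%), against 38.0% of the windows of genes in the table, and among the 5 printed it was found in Psmc3ip only. CCGGAAG, a motif chosen after the sequences had been seen, stood in 15 of 38 windows (39.5%), against 18.2% of the windows of genes in the table. It was found 3 times in Psma6, 3 times in Psmc3ip, once each in Psmc6 and Psmg1, and not in Psmb5. No match to one motif overlapped a match to another in these windows. The 9 matched genes that fell with talazoparib held TGACNNNGC in 3 windows, CCAAT in 2 and CCGGAAG in 4. The 28 matched genes that were not called held TGACNNNGC in 3 windows, CCAAT in 9 and CCGGAAG in 10. These matches describe letters in the windows and were not tested.

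In control cells the proteasome genes were abundant. Their median was 116 FPKM (fragments scaled by the authors to gene length and library size), against 10.6 FPKM over all listed genes. Structural beta subunits were highest as a class, with Psmb1, Psmb2, Psmb3 and Psmb4 between 239 and 280 FPKM in control. The alpha subunits ran from 90.4 FPKM (Psma3) to 305 FPKM (Psma2) in control, and the 3 catalytic subunits from 170 FPKM (Psmb5) to 222 FPKM (Psmb7). The Psmc ATPases ran from 87.2 to 208 FPKM and the lid subunits from 64.3 to 161 FPKM in control. Assembly chaperones were lower, at 14.3 to 49.0 FPKM for those of the 19S cap and 17.7 to 53.3 FPKM for those of the core.

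Psme1, which with Psme2 forms the interferon-inducible PA28 activator, was the highest of the 45 genes in control. It was at 339 and 392 FPKM with the combination, 361 and 315 FPKM with talazoparib, 362 and 357 FPKM with romidepsin and 365 and 337 FPKM in control. All 4 groups overlap in these values. Psme2b, a near-copy of Psme2 that is uncertain because reads could be split between them, was the lowest. It was at 3.95 and 2.41 FPKM with the combination, 3.06 and 2.92 FPKM with talazoparib, 1.82 and 2.40 FPKM with romidepsin and 1.97 and 2.46 FPKM in control.

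**Figure D1:**
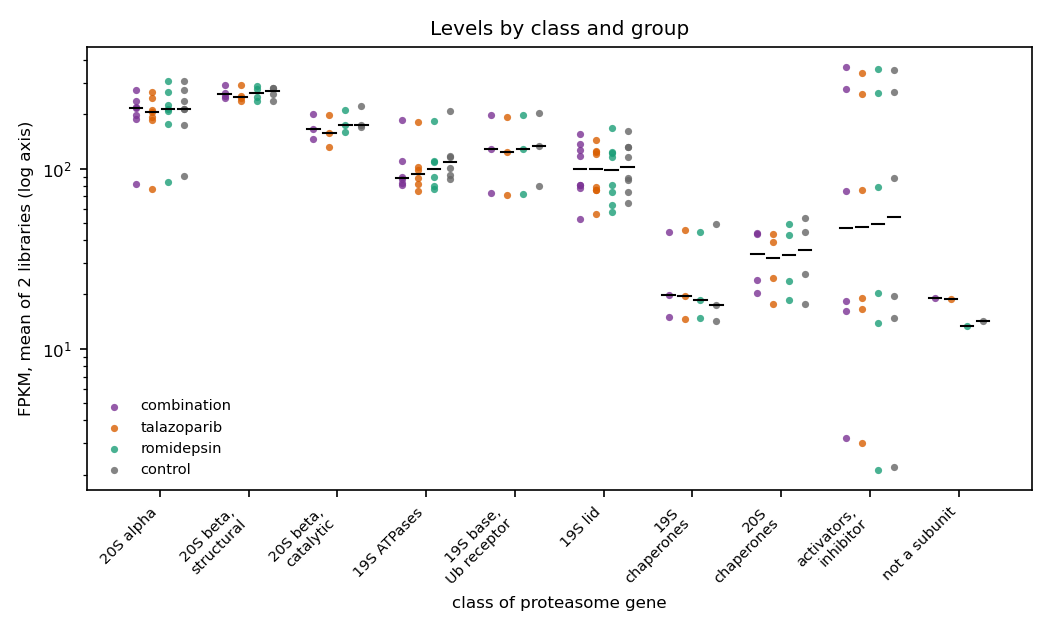
FPKM on a log axis for each class of proteasome gene, with 1 point per gene (mean of 2 libraries) in each group and a bar at the class median. Structural beta genes lie highest as a class and chaperones low, with Psme2b at the bottom (2.21 FPKM in control).

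Total counts ran from 28419156 to 38913292 reads per library, and the 45 genes together took 0.730% to 0.827% of them. The share was lowest in talazoparib 1 (0.730%), combination 1 (0.741%) and romidepsin 2 (0.749%), and was 0.787% to 0.827% in the other 5 libraries. Of 11 T-cell markers 8 were in the table, and their summed level was 2810 to 2819 CPM with the combination, 2845 to 2906 CPM with talazoparib, 3072 to 3196 CPM with romidepsin and 3039 to 3227 CPM in control (CPM are counts brought to 1 library size with TMM). The defining receptor constants Trac, Trbc1 and Trbc2 were not among them. Of 9 myeloid markers 3 were in the table, with a sum of 49.3 to 52.2 CPM with the combination, 38.0 to 44.3 CPM with talazoparib, 21.2 to 24.4 CPM with romidepsin and 15.0 to 17.3 CPM in control, and Csf1r, Adgre1, Cd14, Fcgr3, Mpo and Elane were not among them. The 1 of 6 B-cell markers in the table was at 9.84 to 12.3 CPM with the combination, 9.01 to 9.83 CPM with talazoparib, 4.86 to 5.49 CPM with romidepsin and 4.15 to 4.55 CPM in control. The 4 of 7 fibroblast markers summed to 217 to 244 CPM with the combination, 195 to 260 CPM with talazoparib, 212 to 225 CPM with romidepsin and 234 to 247 CPM in control. Within that sum Acta2 averaged 97.1, 97.8, 146 and 174 CPM in combination, talazoparib, romidepsin and control, while Pdgfrb averaged 101, 104, 55.6 and 51.7 CPM and Pdgfra 29.4, 24.1, 14.1 and 12.8 CPM in the same groups. The 2 of 8 erythroid markers summed to 7.13 to 7.58, 6.37 to 6.90, 4.75 to 5.52 and 4.74 to 5.75 CPM in combination, talazoparib, romidepsin and control. The ribosomal transcript Rn45s took 0.520% and 0.394% of reads with talazoparib and 0.135% to 0.235% in the other groups. The part of these differences in the results below was not tested. In bulk RNA, fewer cells of a type and less RNA per cell cannot be told apart.

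Across the 4 libraries with talazoparib (combination and talazoparib alone) and the 4 without (romidepsin and control), 10 proteasome genes fell and 1 rose. Those that fell were the 3 standard catalytic subunits Psmb5, Psmb6 and Psmb7, the alpha subunits Psma2, Psma6 and Psma7, the ATPase Psmc6, the lid subunits Psmd8 and Psmd11, and the core chaperone Psmg1. The gene that rose was Psmc3ip, which is no subunit. All changes were small, with the largest fall at a log2 fold change of -0.37 for Psmc6, or 0.771 times the level without talazoparib. A gene is said to have risen or fallen where the quasi-likelihood test of edgeR passed 0.05 after Benjamini-Hochberg adjustment over 11934 genes.

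The falls were 22.2% of the 45 genes, against 13.7% of all tested genes, and the single rise was 2.22%, against 16.5% of all tested genes. In either direction 24.4% of the proteasome genes passed, against 30.2% of all. The median log2 fold change of the 45 genes was -0.16, against 0.00 over all tested genes, and 39 of 45 (86.7%) lay below 0, against 50.1% of all. Fewer calls remained without control 1, combination 1, romidepsin 1 or control 2, and calls over all tested genes dropped in these fits too. The median of the 45 minus that of all genes was then -0.18, -0.12, -0.13 and -0.16, in this order. The count of calls was 5 with scaling by library size only, which moves the median of all genes by 0.10 in log2. There 4 fell and Psmc3ip rose. It was 5 with limma on FPKM. Relative to the median of all genes, the median of the 45 stayed at -0.16 under that scaling.

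**Figure D2:**
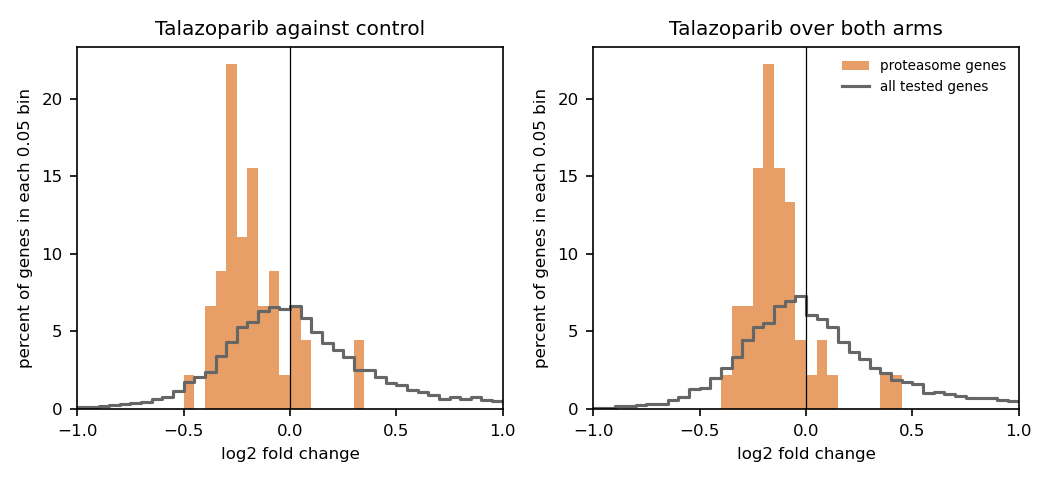
Share of genes in each bin of 0.05 log2 units, for talazoparib against control (left) and for the 4 libraries with over the 4 without talazoparib (right), with proteasome genes filled and all tested genes as a line. Genes beyond 1 log2 unit either way are not drawn. The proteasome genes form a narrow peak left of 0 (medians -0.22 and -0.16), while all genes centre on 0.

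The chymotrypsin-like catalytic subunit Psmb5 (gene ID 19173, chromosome 14, 54614120 to 54617995 in GRCm38, minus strand) was at 116 and 132 CPM with the combination, 114 and 113 CPM with talazoparib, 149 and 144 CPM with romidepsin and 152 and 158 CPM in control. Every library with talazoparib was below every library without it. Its log2 fold change over those 4 and 4 libraries was -0.35 ± 0.06 (SE), with an adjusted p of 0.00632 (edgeR quasi-likelihood test, Benjamini-Hochberg). The gene holds the microRNA gene Mir686 within its exons, and reads of the pseudogene Psmb5-ps could be split from it. The other catalytic subunits moved less. Psmb6 averaged 168 ± 11.0 CPM with the combination, 161 ± 5.34 with talazoparib, 192 ± 1.13 with romidepsin and 189 ± 2.55 in control (SD, n = 2 each), a log2 fold change of -0.21 ± 0.06. Psmb7 averaged 191 ± 8.76, 189 ± 6.37, 215 ± 13.6 and 226 ± 3.63 CPM in combination, talazoparib, romidepsin and control (SD, n = 2 each), also -0.21 ± 0.06. Psmb7 shares 405 exon bases with Nek6 on the opposite strand, and the sources used here do not state whether counting used strand. Psmb6 lost its call without control 1, control 2, romidepsin 1, romidepsin 2, talazoparib 2 or combination 1, and Psmb7 without control 1, control 2, romidepsin 1, talazoparib 1, combination 1 or combination 2. Both also lost it with library size only and with limma, with adjusted p-values up to 0.200 for Psmb6 and 0.203 for Psmb7.

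The 4 structural beta subunits had no call, with log2 fold changes of -0.21 (Psmb3) to -0.05 (Psmb2 and Psmb4). In the alpha ring 3 of 7 fell, and Psma6 was the most reduced. Psma6 (gene ID 26443, chromosome 12, 55384222 to 55418459, plus strand) was at 186 and 200.3 CPM with the combination, 183 and 197 CPM with talazoparib, 247 and 224 CPM with romidepsin and 249.5 and 247 CPM in control. The groups with and without talazoparib did not overlap. Its log2 fold change was -0.33 ± 0.06, with an adjusted p of 0.00703 (edgeR quasi-likelihood test, Benjamini-Hochberg). Psma2 changed by -0.28 ± 0.07 and Psma7 by -0.26 ± 0.07, and both lost the call without control 1, romidepsin 1 or combination 1, Psma7 also without control 2, and both lost it with library size only and limma on FPKM, with adjusted p-values up to 0.0775 for Psma2 and 0.126 for Psma7 over all alternatives. Psma1, Psma3, Psma4 and Psma5 did not pass, at -0.09, -0.24, -0.09 and -0.01.

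Psmc6, an ATPase of the 19S base (gene ID 67089, chromosome 14, 45329823 to 45349074, plus strand), had the smallest p of the 45 genes. It was at 138 and 137 CPM with the combination, 154 and 149.8 CPM with talazoparib, 183 and 179 CPM with romidepsin and 198 and 189.9 CPM in control. The 4 groups did not overlap, with the combination lowest and control highest. The log2 fold change with talazoparib was -0.37 ± 0.06 and the adjusted p 0.00271 (edgeR quasi-likelihood test, Benjamini-Hochberg). The other 5 ATPases lay at -0.20 to -0.15 and did not pass. Their replicates spread widely: the median of the 6 ATPases relative to control was -0.41 in combination 1 but -0.13 in combination 2, -0.39 in talazoparib 1 but -0.18 in talazoparib 2, and -0.09 in romidepsin 1 but -0.22 in romidepsin 2. Romidepsin 2 was thus lower than the second library of either talazoparib group in this median. Psmd1, Psmd2 and the ubiquitin receptor Psmd4, which were also grouped with the base, lay at -0.17, -0.14 and -0.15 and did not pass.

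In the lid 2 of 8 fell. Psmd11 (gene ID 69077, chromosome 11, 80428615 to 80473248, plus strand) was at 88.3 and 91.4 CPM with the combination, 93.1 and 98.6 CPM with talazoparib, 107 and 105 CPM with romidepsin and 115 and 121 CPM in control. As with Psmc6, the 4 groups were ordered without overlap. Its log2 fold change with talazoparib was -0.27 ± 0.06, with an adjusted p of 0.0120 by the edgeR quasi-likelihood test (Benjamini-Hochberg), and the call was lost without control 2 (adjusted p 0.0527), with library size only (0.0757) and with limma on FPKM (up to 0.0546). Psmd8 fell by 0.23 ± 0.06 on the log2 scale, a call lost without control 1, talazoparib 2 or any library of romidepsin or the combination (adjusted p up to 0.0969), and with library size only (0.119) and limma on FPKM (up to 0.0849). Psmd3 and Psmd6 lay above 0 (0.07 and 0.11) without passing. Psmd6 and Psmd7 had the largest standard errors in the lid (0.13 and 0.12). Psmd7 was at 114 and 141 CPM with the combination, 106 and 135 CPM with talazoparib, 143 and 108 CPM with romidepsin and 141 and 156 CPM in control, so its groups overlap.

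Among the chaperones, Psmg1, which pairs with Psmg2 to build the alpha ring, was the gene called. Psmg1 (gene ID 56088, chromosome 16, 95979933 to 95990960, minus strand) was at 41.6 and 47.2 CPM with the combination, 46.2 and 42.6 CPM with talazoparib, 54.5 and 54.3 CPM with romidepsin and 58.9 and 58.1 CPM in control. All 4 libraries with talazoparib were below the other 4. Its log2 fold change was -0.34 ± 0.07, with an adjusted p of 0.00775 (edgeR quasi-likelihood test, Benjamini-Hochberg). Its partner Psmg2 changed by -0.18 and did not pass. Psmd5, Psmd9 and Psmd10, chaperones of the 19S base, lay at -0.16, -0.08 and 0.03. None of the activators passed, and the one nearest to the threshold was the nuclear activator Psme3 at -0.24 (adjusted p 0.0588, edgeR quasi-likelihood test with Benjamini-Hochberg adjustment). The proteasome inhibitor Psmf1 lay at 0.08.

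Psmc3ip (gene ID 19183, chromosome 11, 101092141 to 101095435, minus strand) was at 17.5 and 18.8 CPM with the combination, 17.0 and 19.2 CPM with talazoparib, 14.7 and 12.8 CPM with romidepsin and 13.7 and 15.4 CPM in control. Every library with talazoparib was above every library without it. The log2 fold change was 0.36 ± 0.10, with an adjusted p of 0.0240 by the edgeR quasi-likelihood test with Benjamini-Hochberg adjustment. The call was lost without control 1, romidepsin 2, talazoparib 2 or either combination library, with an adjusted p of up to 0.0974. Psmc3ip shares 385 exon bases with Mlx on the opposite strand, and Mlx itself changed by -0.10 and did not pass.

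**Figure D3:**
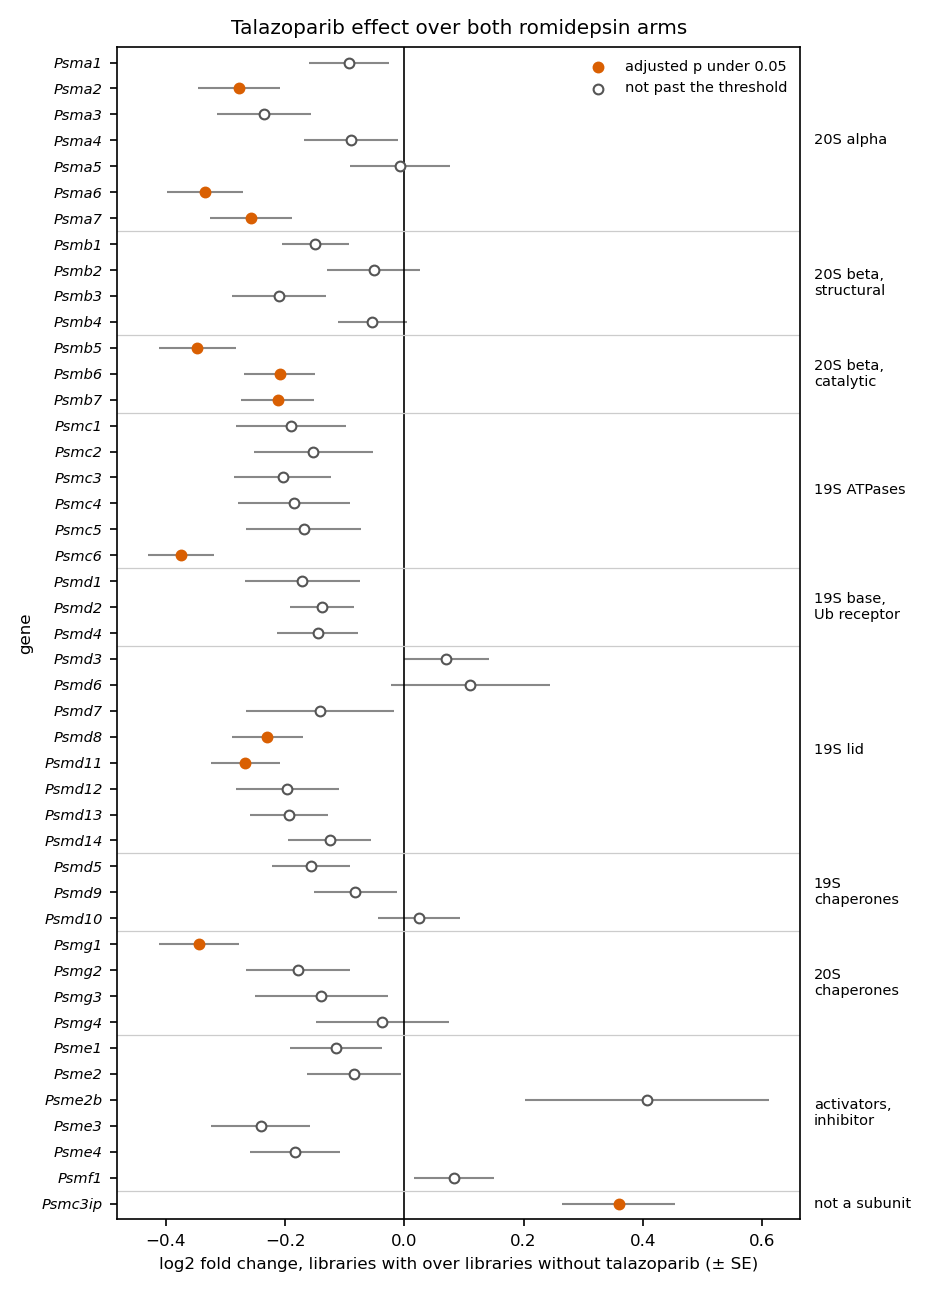
Log2 fold change of each proteasome gene over the 4 libraries with against the 4 without talazoparib (bars, SE), grouped by role, with filled points for an adjusted p under 0.05. The 3 catalytic subunits are all filled and left of 0, the 4 structural beta subunits are all open, and Psmc3ip (0.36) is the filled point on the right. The open Psmb3 lies at -0.21, level with the filled Psmb6 and Psmb7.

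The 4 genes with the smallest p-values (Psmc6, Psmb5, Psma6 and Psmg1) kept their calls over both romidepsin states in all 16 alternative settings, and Psmd11 in 12 of 16. Of the 45 genes, 14 had all 4 libraries with talazoparib below all 4 without (31.1%, against 15.8% of all tested genes), and Psmc3ip alone had them all above (2.22%, against 17% of all). The 14 include all 10 that fell, together with Psmb1, Psmd2, Psmd13 and Psme4.

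**Figure D4:**
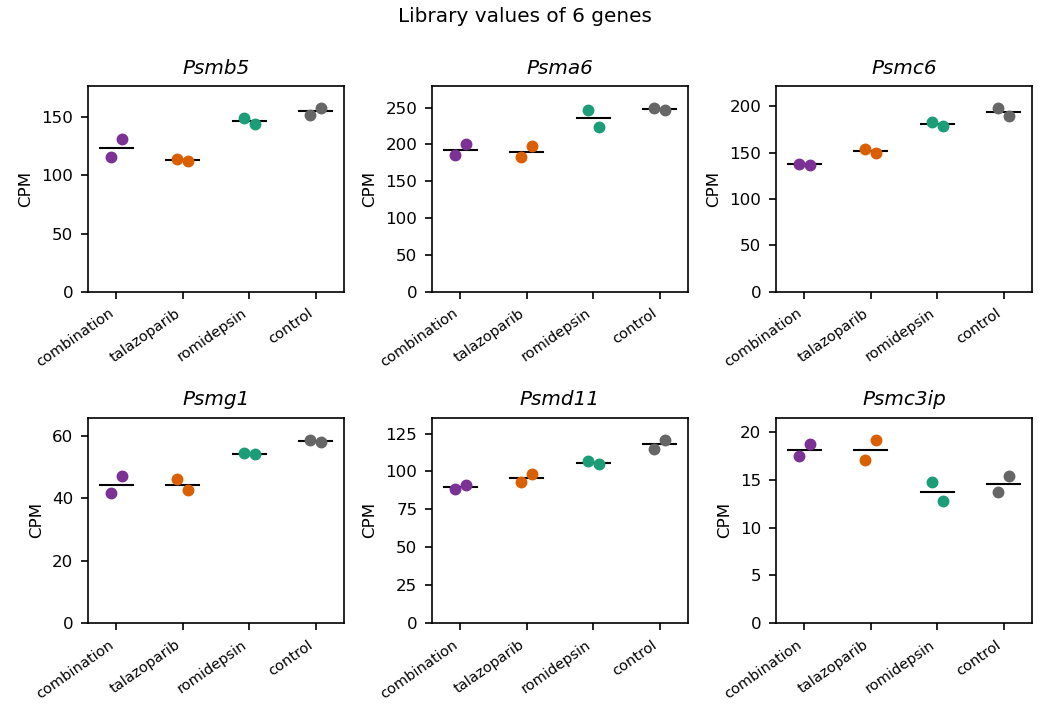
CPM in each library (points) and group mean (bar) for 6 of the genes given library by library. Psmb5, Psma6, Psmc6, Psmg1 and Psmd11 lie lower in the 2 groups with talazoparib than in romidepsin and control, and Psmc3ip lies higher.

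Talazoparib alone against control gave 4 proteasome genes that fell, Psmb5, Psmc6, Psma6 and Psmg1, and none that rose. The library values are those given above. The log2 fold changes were -0.45 ± 0.09 for Psmb5, -0.35 ± 0.08 for Psmc6, -0.38 ± 0.09 for Psma6 and -0.40 ± 0.10 for Psmg1. Adjusted p-values (edgeR quasi-likelihood test, Benjamini-Hochberg) were 0.0213 (Psmb5), 0.0283 (Psmc6), 0.0338 (Psma6) and 0.0360 (Psmg1). The falls were 8.89% of the 45 genes, against 4.64% of all tested genes, and 0 rose, against 6.43% of all. In both directions 8.89% passed, against 11.1% of all. An unadjusted p under 0.05 was found for 15 of the 45 genes, 14 of them lower and Psmc3ip higher, against 3482 of the 11934 tested genes, 1613 of them lower. The median of the 45 was -0.22, against 0.01 over all genes, and 38 lay below 0. In 33 genes both talazoparib libraries were below both control libraries (73.3%, against 27.7% of all tested genes), and in 2 they were above (4.44%, against 29% of all). All calls were lost without control 1, control 2 or talazoparib 2, and some without combination 1 or combination 2. Calls over all tested genes dropped in these fits too. Relative to the median of all genes, the median of the 45 was -0.21 without control 1 and -0.23 without control 2. It was -0.24 without talazoparib 2 and -0.16 without talazoparib 1. Psma6 was also lost without talazoparib 1, and Psmg1 without romidepsin 1 or romidepsin 2. The count was 0 when the fit held the compared groups alone and 1 with scaling by library size only. In the authors' deposited table, Psmb5 was the only one of the 45 genes with an adjusted p under 0.05 in this comparison, and it was lower. Of all listed genes, 11.5% passed there.

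The combination against control gave 5 genes that fell, the same 4 and the lid subunit Psmd11. The log2 fold changes were -0.50 ± 0.08 for Psmc6, -0.39 ± 0.08 for Psmd11, -0.40 ± 0.10 for Psmg1, -0.36 ± 0.09 for Psma6 and -0.33 ± 0.09 for Psmb5. The adjusted p was 0.00655 for Psmc6 and 0.0183 to 0.0432 for the other 4, by the edgeR quasi-likelihood test with Benjamini-Hochberg adjustment. The falls were 11.1% of the 45 genes, against 7.28% of all tested genes, and 0 rose, against 10.2% of all. In both directions the share was 11.1%, against 17.5% of all. In 29 genes both combination libraries were below both controls (64.4%, against 32.5% of all tested genes), and in 3 they were above (6.67%, against 33.7%). The median of the 45 was -0.18, against 0.00 over all genes, with 38 below 0. Both comparisons share the control libraries, so a low or high control value enters both. All calls were lost without control 1 or combination 2, and most without control 2 or combination 1. Calls over all tested genes dropped in these fits too. Relative to the median of all genes, the median of the 45 was -0.16 without control 1 and -0.19 without control 2. It was -0.10 without combination 1 and -0.24 without combination 2. With scaling by library size only the count of calls was 1. Psmb5 was also lost without romidepsin 1 or romidepsin 2. In the authors' deposited table, Psmc6, Psmd11 and Psmg1 were lower with an adjusted p under 0.05. These are 3 of the 45 genes, where 16.2% of all listed genes passed in either direction.

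In the combination against romidepsin alone, Psmc6 fell by 0.40 ± 0.08 on the log2 scale, with an adjusted p of 0.0218 (edgeR quasi-likelihood test, Benjamini-Hochberg). It was the only proteasome gene called, 2.22% of the 45, against 4.7% of all tested genes that fell and 11.7% called in either direction, and 0 rose, against 7.01% of all. Psma6 (-0.29) and Psmg1 (-0.29) came next and did not pass. The Psmc6 call was lost without any 1 of the 4 libraries compared, and calls over all tested genes dropped in these fits too. The median of the 45 was -0.10, and 0.01 with scaling by library size only, which moves the median of all genes to 0.11. Relative to the median of all genes it was -0.09 under both scalings. With library size only, and with limma on FPKM, 1 of the 45 fell and 1 rose. In the authors' deposited table Psmc6 was likewise the only one called, and it was lower. Of all listed genes, 12.5% were called there.

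Romidepsin alone against control called 0 of the 45 genes in edgeR's quasi-likelihood test. An unadjusted p under 0.05 in that test was found for 0 of the 45, against 522 of the 11934 tested genes. DESeq2 and the authors' deposited table also called 0 of the 45. Over all genes DESeq2 called 8, and the deposited table called 0.0897% of all listed genes. In edgeR 0.0251% of all tested genes passed, 0.0168% lower and 0.00838% higher. The smallest p-values were those of Psmd11 (-0.16 ± 0.08) and Psmd5 (-0.14 ± 0.09), neither past the threshold. Over the 45 genes the log2 fold changes ran from -0.24 to 0.11 with a median of -0.08. In 14 genes both romidepsin libraries were below both controls (31.1%, against 18.6% of all tested genes), and in 3 they were above (6.67%, against 18.7%). The 2 romidepsin libraries differed: romidepsin 1 was the higher in 39 of the 45 genes, against 6128 of the 11934 tested genes. The median gap over the 45 was 0.14 in log2, and medians relative to control were 0.00 in romidepsin 1 and -0.13 in romidepsin 2.

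Adding romidepsin to talazoparib (combination against talazoparib) called 0 of the 45 genes in edgeR, in DESeq2 and in the authors' deposited table. Of all tested genes edgeR called 0.0251% (0.00838% higher, 0.0168% lower), and DESeq2 called 26 genes. The deposited table called 0.204% of all listed genes. An unadjusted p under 0.05 in edgeR was found for 0 of the 45, against 510 of the 11934 tested genes. The nearest to the threshold were Psmc6 (-0.14 ± 0.08) and Psmb5 (0.12 ± 0.09). The romidepsin effect over both talazoparib states likewise had 0 calls in edgeR and DESeq2, with Psmc6 (-0.12 ± 0.06) and Psmd11 (-0.12 ± 0.06) nearest. Of all tested genes edgeR called 0.0251% there (0.00838% higher, 0.0168% lower), and DESeq2 called 81 genes. Under an unadjusted p of 0.05 in edgeR lay 0 of the 45, against 876 of the 11934 tested genes. The interaction, which asks whether the log2 effects of the drugs add up, also had 0 calls in edgeR and DESeq2. Psmb5 (0.21 ± 0.13) and Psmc2 (0.31 ± 0.20) were nearest. Of all tested genes edgeR called 0.0168%, all lower, and DESeq2 called 7 genes. For the interaction 0 of the 45 had an unadjusted p under 0.05 in edgeR, against 154 of the 11934 tested genes. These results do not show that the drugs' effects were equal or additive, since a p that misses the threshold leaves effects of the size of these standard errors possible.

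**Figure D5:**
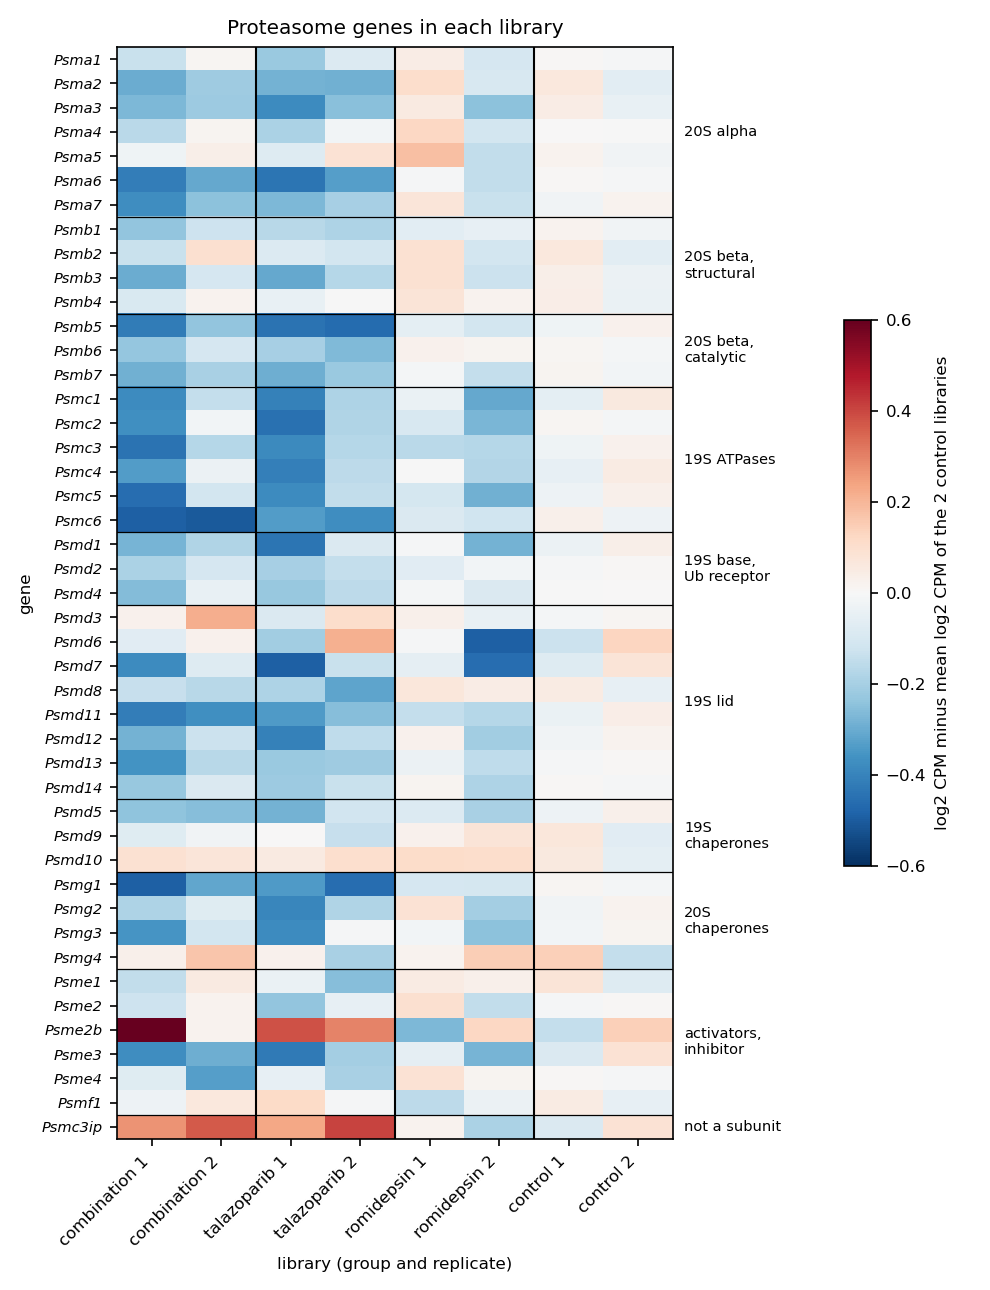
Log2 CPM of each proteasome gene in each library minus the mean of the 2 control libraries, with genes grouped by role and the colour scale ending at 0.6 (Psme2b exceeds it in combination 1). Blue is widespread in the talazoparib and combination libraries, and in most genes stronger in the first library of each, while romidepsin 2 is also bluer than romidepsin 1.

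In the groups that received a drug, most of these genes differed in the same direction between replicates. Combination 2 was above combination 1 in 39 of 45 genes (median 0.13 in log2), against 6284 of the 11934 tested genes. Talazoparib 2 was above talazoparib 1 in 31 of 45 (median 0.08), against 6155 of the 11934. The controls split 22 to 23. Medians relative to control were -0.24 and -0.10 in the combination libraries, -0.24 and -0.16 with talazoparib, and 0.00 and -0.13 with romidepsin. Combination 2 thus lay above romidepsin 2 in this median. In the median of the alpha subunits no library with talazoparib was above one without it. This median was -0.27 and -0.22 with the combination and -0.27 and -0.20 with talazoparib. It was 0.07 and -0.13 with romidepsin and 0.01 and -0.01 in control. The medians of the 3 catalytic subunits were ordered likewise, at -0.29 and -0.20 with the combination and -0.29 and -0.27 with talazoparib. They were -0.01 and -0.11 with romidepsin and 0.01 and -0.01 in control. The same held for the median of Psmd1, Psmd2 and Psmd4. Single genes differed, as Psma5 was at 236 CPM in talazoparib 2 and 201 CPM in romidepsin 2.

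Of the 3 subunits left out by the rule, 2 fell over the 4 libraries with against the 4 without talazoparib. In each comparison with control that included talazoparib 1 fell. Of all tested genes, 13.7% fell over those 4 and 4 libraries. Against control, 4.64% fell with talazoparib and 7.28% with the combination. Psmb10, the immunoproteasome counterpart of Psmb7, was at 89.3 and 107 CPM with the combination, 95.7 and 95.8 CPM with talazoparib, 125 and 129.6 CPM with romidepsin and 139.5 and 133 CPM in control. It fell with talazoparib against control (-0.51 ± 0.10, adjusted p 0.0219, edgeR quasi-likelihood test with Benjamini-Hochberg adjustment). Over the 4 libraries with against the 4 without talazoparib, Psmb10 fell by 0.44 and Psmb8, the counterpart of Psmb5, fell by 0.32 on the log2 scale, while Psmb9, the counterpart of Psmb6, lay at -0.17 and did not pass. Of 13 other proteasome subunits and partners 1 fell and none rose, where 13.7% of all tested genes fell and 16.5% rose. That one was Uchl5, a deubiquitinase of the 19S cap, which averaged 50.7 ± 2.77 CPM with the combination, 47.5 ± 3.43 with talazoparib, 58.1 ± 2.93 with romidepsin and 72.2 ± 3.02 in control (SD, n = 2 each), a log2 fold change of -0.40. Pomp, the chaperone of the beta ring, lay at 0.01.

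The ubiquitin-activating enzyme Uba1 (-0.34) fell. Of 13 p97 cofactors and shuttles, Rad23b (-0.43) and Ubqln1 (-0.33), which carry ubiquitinated proteins to the proteasome, fell together with Nub1 (-0.28). Of 11 genes of the Nfe2l1 pathway, Hcfc1 (-0.36) and Ngly1 (-0.33) fell and Ogt (0.26) rose. Over the same 4 and 4 libraries 13.7% of all tested genes fell, 16.5% rose and 30.2% were called in either direction. Nfe2l1 itself was at 155 and 135 CPM with the combination, 162 and 55.8 CPM with talazoparib, 194 and 247 CPM with romidepsin and 209 and 185 CPM in control. All 4 libraries with talazoparib were below the other 4, but the talazoparib libraries lay far apart. Its log2 fold change was -0.73 ± 0.28 and did not pass (adjusted p 0.0823, edgeR quasi-likelihood test with Benjamini-Hochberg adjustment).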

How the data were processed

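RNA from 8 libraries of MBL2 cells, 2 per group, was sequenced after TruSeq Stranded mRNA preparation, per the labels' protocols. Reads were processed with HISAT2 and StringTie on mm10, per the submitters' processing notes, with no version in the sources used here. A deposited table holds, per the file headers, the authors' raw read counts, FPKM, normalised log2 values, signed linear fold changes (a score), and unadjusted and adjusted p-values per gene. The log2 values and fold scores of the authors entered no test, and only calls by their adjusted p-values were counted. The table listed 12260 genes, each with at least 1 read in every library, so genes silent in a library are not analysed here.

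Counts were filtered with filterByExpr, scaled with TMM (0.954 to 1.04 per library) and passed to edgeR 4.0.16 (quasi-likelihood, 1 term per group, all 8 libraries, 4 residual degrees of freedom), with Benjamini-Hochberg adjustment over 11934 genes and a threshold of 0.05. The biological coefficient of variation was 12.9%. Library values were given, in each comparison, for the 4 called genes with the smallest p in each direction and for the genes with the highest and lowest level. Where none passed, the 2 with the smallest p were named. Values of Psmb6, Psmb7, Psmd7 and Uchl5 were added after they had been seen. The genes and lists were chosen with earlier results of these data known. Alternatives were DESeq2 1.42.0 and its size factors, library size only, no filter, robust variances, a replicate block, only the compared groups, limma 3.58.1 on log2(FPKM + 1) and log2(FPKM + 0.1), and leaving out each library. Where a library was left out, the lone library of its group was taken to vary like the other groups. The fits were tested on simulated data. Gene coordinates are from RefSeq (GRCm38.p6), for all 45 genes, and strands and exon overlaps are from GENCODE (GRCm38).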

Additional observations from a re-analysis of the deposited data

How the results depend on the processing

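The counts of proteasome genes called depended on the scaling and on single libraries. With scaling by library size only, 1 gene was called for talazoparib against control, 1 for the combination against control, 2 for the combination against romidepsin and 5 for talazoparib over both romidepsin states. limma on log2(FPKM + 1) gave 2, 2, 2 and 5 in the same order, and limma on log2(FPKM + 0.1) gave 2, 2, 2 and 5. With a replicate block, 2 were called for talazoparib against control and 3 for the combination against control, and Psmb7 lost its call over both romidepsin states (adjusted p 0.0513, edgeR quasi-likelihood test). Deviations of same-numbered libraries correlated at 0.131 to 0.378 among combination, talazoparib and control. Between romidepsin and each of these groups they correlated at -0.43 to -0.13. The labels do not say what a replicate number shares, so the block rests on numbers only. When the fit held the compared groups alone, 0 were called for talazoparib against control, and calls over all genes dropped from 1321 to 296. DESeq2 called 5, 7, 1 and 14 genes in the 4 comparisons. Calls over all genes, in the same order, were 1321, 2091, 1397 and 3605 in the main fit and 1829, 2464, 1857 and 3819 with DESeq2. They were 1468, 2165, 1602 and 3758 with library size only and 1240, 2008, 1446 and 3554 with limma on log2(FPKM + 1). With a replicate block they were 860 for talazoparib against control and 1603 for the combination against control. Leaving out 1 library gave 0 to 3 calls for talazoparib against control, 0 to 5 for the combination against control, 0 to 1 for the combination against romidepsin and 5 to 10 for talazoparib over both romidepsin states. The cause was not tested. No called gene changed direction. The lowest count of these genes was 56 reads (Psme2b in romidepsin 1), so counting error adds to the spread of that gene.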
